A study of Homo sapiens with 24 samples.

Results

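Mucins are the heavily O-glycosylated proteins that cover the colon epithelium, and trefoil factors are the small secreted peptides that accompany them. The 10 genes described here were chosen by name, with earlier results of these data known. They are the membrane-bound mucins MUC1, MUC4, MUC13 and MUC20, the gel-forming mucins MUC2, MUC5AC and MUC5B, and the trefoil factors TFF1, TFF2 and TFF3. Every non-control probe carrying one of these gene names was taken, which gave 21 probes for 10 of the 36337 gene names and 50599 probes on the array. The cells were HT29, a human colon adenocarcinoma line that keeps some features of secretory epithelium, and the study asked how the metabolites of the food bacterium Propionibacterium freudenreichii act together with the death ligand TRAIL. RNA of 6 groups with 4 arrays each was hybridised to 1-colour Agilent arrays: untreated cells (NT), cells given the short-chain fatty acids propionate at 30 mM and acetate at 15 mM (C3/C2), cells given the bacterial culture supernatant diluted 1/2 (SN), cells given 100 ng/ml TRAIL with 2 µg/ml of the anti-Flag M2 antibody, and cells given TRAIL together with C3/C2 or with SN, each treatment for 6 h. The methods describe duplicates from a pair of independent experiments, but the labels do not say which replicate numbers share an experiment, so p-values measure the spread between these arrays, part of which may be technical.

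In the goblet cell, MUC2 polymerises into the gel that lines the healthy colon, and TFF3 is secreted with it. MUC5AC, MUC5B, TFF1 and TFF2 are better known from the stomach or the airways, and MUC5AC and TFF1 can appear in colon tumours. Membrane mucins stay anchored at the cell surface, carry a large glycosylated outer part, and in the case of MUC1 and MUC4 also take part in signalling by growth factor receptors.

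Levels below are log2 of the processed intensity of a probe over the 75th percentile of its own array, so a level of 0 is that percentile and a difference of 1 is a factor of 2. Differences are between groups within a probe, and levels of different probes do not rank the abundance of their transcripts. A probe was called in a comparison when limma, fitted over the 27957 probes that the scanner software marked well above background throughout at least 1 group, gave a Benjamini-Hochberg adjusted p under 0.05 together with a fold change of at least 2. Of the 21 probes, 18 entered this fit, for 9 of the 10 genes, and 16 were well above background on all 24 arrays. The 75th percentile of intensity ran from 453 to 1009 across the arrays and 53.0% to 60.6% of spots were well above background. All 10 colon epithelial marker genes checked were well above background on all 24 arrays, among the goblet cell markers 5 of 8 were, and CLCA1, a secreted goblet cell protein, on 0 arrays. In bulk RNA, fewer cells of a type and less RNA per cell cannot be told apart. NT and C3/C2 arrays shared 2 slides, SN and TRAIL arrays lay together on another, and both co-treatments on another. On every slide the groups lay in different rows of arrays. In comparisons within a slide, the row and the treatment therefore cannot be told apart. For each comparison with NT other than that of C3/C2, the slide and the treatment cannot be told apart by a fixed block. The same holds for SN against C3/C2, for each co-treatment against a single treatment, and for both interactions. With slide as a random block its estimated correlation was 0.0179. That estimate draws only on the slides shared by NT and C3/C2, since the group means absorb the others. It cannot show a slide effect in the confounded comparisons.

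The probe sequences, as the array files give them with hg19 positions, decide which part of each gene was read. The probes below are shown because results given below draw on them, or because the probes of a gene turned out to share sequence. TFF3 A_23_P393099, which stands for its gene and is not shown, has a listed position of 37 bases for its 60. MUC5AC A_33_P3216570 has no listed position. MUC4 is known for its long tandem repeats, and 3 of its 4 probes share the run of 12 bases marked in capitals.
MUC4 A_24_P239177, chr3:195514780-195514839, minus strand: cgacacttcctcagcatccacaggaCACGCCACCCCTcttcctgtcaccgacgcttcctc
MUC4 A_24_P239176, chr3:195514760-195514819, minus strand: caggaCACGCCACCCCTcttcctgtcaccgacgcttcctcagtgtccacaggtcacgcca
MUC4 A_33_P3417281, chr3:195506310-195506369, minus strand: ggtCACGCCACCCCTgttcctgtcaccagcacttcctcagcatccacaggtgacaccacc
The first and second of these overlap by 40 bases, so the MUC4 probes do not measure independent targets.
The probes of the other genes shown carry no capitals, and those of MUC1 and MUC2 span more genome than their own length, so that they join separate stretches of it.
MUC1 A_23_P137856, chr1:155158652-155159726, minus strand: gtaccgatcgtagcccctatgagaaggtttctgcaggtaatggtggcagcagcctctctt
MUC2 A_23_P256784, chr11:1103558-1103831, plus strand: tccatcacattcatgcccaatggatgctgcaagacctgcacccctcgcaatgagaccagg
TFF1 A_24_P322771, chr21:43783440-43783499, minus strand: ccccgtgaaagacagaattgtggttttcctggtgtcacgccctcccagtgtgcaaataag
TFF3 A_33_P3334305, chr21:43733595-43733654, minus strand: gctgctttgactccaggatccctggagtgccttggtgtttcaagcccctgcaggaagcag
No member probe shared a run longer than 17 bases with any of the 50578 probes of other genes.

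Across the 5 treatments, few member probes passed the fold of 2. Under C3/C2, 1 of 18 probes was called higher than NT and 0 lower, where 13.3% and 6.22% of all probes were. Under SN, 0 were called higher and 1 lower, where 14.1% and 9.69% of all probes were. TRAIL gave 2 higher and 0 lower, against 0.723% and 2.11% of all probes. TRAIL with C3/C2 gave 1 higher and 0 lower, against 16.4% and 8.12%, and TRAIL with SN gave 0 in either direction, against 16.1% and 10.2%. At an adjusted p under 0.05 with no minimum fold, the member probes higher and lower numbered 5 and 1 under C3/C2 (34.9% and 28.3% of all probes), 6 and 2 under SN (35.2% and 33.8%), 5 and 4 under TRAIL (19.3% and 12.1%), 3 and 3 under TRAIL with C3/C2 (40.1% and 29.4%), and 5 and 3 under TRAIL with SN (37.7% and 32.6%). At an unadjusted p under 0.05 TRAIL with SN gave 8 member probes. The share of all probes at that threshold was not counted, here or below, so such counts show no excess by themselves. The called genes were MUC1, MUC20 and MUC5AC. The median difference from NT over the 18 member probes was -0.05 under C3/C2 and 0.25 under TRAIL on the log2 scale, beside 0.07 and 0.04 over all probes.

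**Figure D1:**
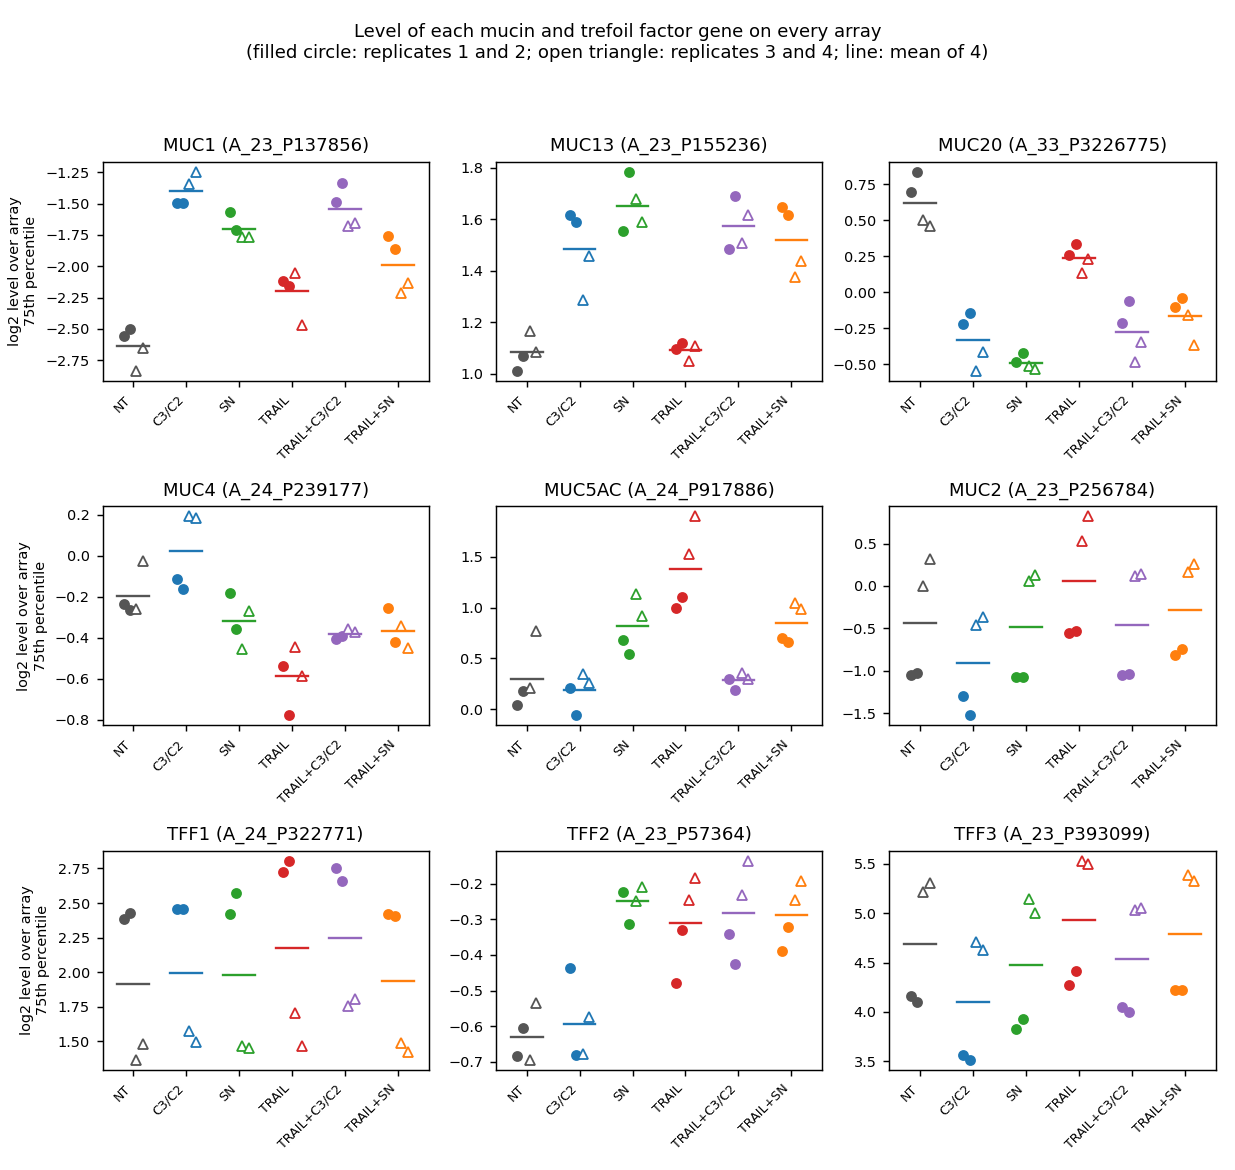
Level of the probe that stands for each of 9 genes (log2 of intensity over the 75th percentile of the array, 1 panel per gene, each with its own vertical range) in the 6 groups. Filled circles are replicates 1 and 2, open triangles replicates 3 and 4, and the line is the mean of 4 arrays. MUC1 lies above NT and MUC20 below NT in every treated array, while TFF1, TFF3 and MUC2 split by replicate number within each group.

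MUC1, the membrane mucin whose cytoplasmic tail signals, rose under every treatment, with the highest mean under C3/C2. Its level in NT was -2.56, -2.50, -2.83 and -2.66 in replicates 1 to 4. Under C3/C2 it was -1.50, -1.50, -1.35 and -1.25. Under SN it was -1.56, -1.71, -1.77 and -1.76. All 8 of these treated arrays lay above all NT arrays, with no overlap. TRAIL alone gave -2.12, -2.16, -2.05 and -2.47, closer to NT but still without overlap. TRAIL with C3/C2 gave -1.49, -1.34, -1.68 and -1.65, and TRAIL with SN gave -1.76, -1.86, -2.21 and -2.13. The difference from NT was 1.24 ± 0.11 (SE, n = 4 per group) on the log2 scale for C3/C2, a 2.36-fold rise (limma adjusted p = 3.09e-09). It was 1.10 for TRAIL with C3/C2 (2.14-fold, limma adjusted p = 1.7e-08). The rises under SN (0.94, limma adjusted p = 1.81e-07), TRAIL with SN (0.65, adjusted p = 2.35e-05) and TRAIL (0.44, adjusted p = 0.00455) stayed under the fold of 2.

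Ordered by mean, MUC1 was lowest in NT, followed by TRAIL, TRAIL with SN, SN, TRAIL with C3/C2 and C3/C2. The neighbours SN and TRAIL with C3/C2 differed by 0.16 (95% interval -0.07 to 0.39), and TRAIL with C3/C2 fell short of C3/C2 by an amount within its error (-0.14, 95% interval -0.38 to 0.09). TRAIL with SN and SN differed by -0.29 (limma adjusted p = 0.0729). SN was below C3/C2 (log2 difference -0.31, limma adjusted p = 0.0294), which missed the threshold without C3/C2 replicate 3 or 4, without SN replicate 2, 3 or 4 and under scaling to the array median (-0.13, adjusted p = 0.356). With TRAIL present, SN differed from C3/C2 by -0.45 (adjusted p = 0.00309), which became -0.30 with the array median (adjusted p = 0.0506) and with spike-in scaling (adjusted p = 0.13). The effect of SN given on top of TRAIL was smaller than that of SN given alone, with an interaction of -0.73 ± 0.16 (SE, limma adjusted p = 0.00237), and that of C3/C2 was -0.58 (adjusted p = 0.0518). On the slides that hold both groups, C3/C2 against NT was 1.24 with slide as a fixed block (adjusted p = 2.3e-05) and 1.30 on the slide with 3 arrays of each. There the groups still lay in different rows. The fold of 2 was not reached under C3/C2 with arrays scaled to their median (0.94) or with normexp background correction (0.97), nor under TRAIL with C3/C2 with scaling to the median (0.75), quantile normalization (0.91) or normexp (0.93). Scaled to the spike-in controls instead, the MUC1 differences of TRAIL (0.18, adjusted p = 0.357) and TRAIL with SN (0.12, adjusted p = 0.439) no longer passed and TRAIL with C3/C2 was 0.43 (adjusted p = 0.0101). The other MUC1 probe, A_33_P3332215, was dim, being well above background on 20 of 24 arrays, and overlapped NT under every treatment, with -0.44 under C3/C2 (95% interval -0.96 to 0.08), so the rise rests on 1 probe.

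MUC20, a membrane mucin that binds the hepatocyte growth factor receptor MET, fell under every treatment in its single probe, A_33_P3226775. NT arrays were at 0.69, 0.83, 0.50 and 0.46. SN arrays were at -0.48, -0.42, -0.51 and -0.53. C3/C2 arrays were at -0.22, -0.14, -0.54 and -0.41. Both groups lay wholly under NT. TRAIL arrays, at 0.26, 0.33, 0.13 and 0.23, came between, also below every NT array. The co-treated arrays ranged from -0.48 to -0.06 with C3/C2 and from -0.37 to -0.04 with SN. MUC20 differed from NT by -1.11 ± 0.10 (SE) under SN, a fold change of 0.463 (limma adjusted p = 4.01e-09), by -0.95 under C3/C2 (adjusted p = 4.95e-08), by -0.90 under TRAIL with C3/C2, by -0.79 under TRAIL with SN and by -0.38 under TRAIL (adjusted p = 0.0067). SN and C3/C2 differed by -0.16 (95% interval -0.37 to 0.06). SN lowered MUC20 less in the presence of TRAIL than in its absence (interaction 0.70, limma adjusted p = 0.00164), but with spike-in scaling the same term was 0.40 (adjusted p = 0.201). Within the shared slides, where the rows still differed, C3/C2 differed from NT by -0.95 (adjusted p = 0.000245). With arrays scaled to their median MUC20 also passed the fold of 2 under C3/C2 (-1.25) and TRAIL with C3/C2 (-1.25), where the median of all probes moved by -0.23 and -0.24.

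MUC13, a membrane mucin abundant on intestinal epithelium, rose with SN, and with C3/C2 under the main scaling, while TRAIL alone gave no difference past the test. MUC13 has a single probe, A_23_P155236. It was at 1.01, 1.07, 1.17 and 1.09 in NT and at 1.56, 1.79, 1.68 and 1.59 under SN. C3/C2 gave 1.62, 1.59, 1.29 and 1.46, and TRAIL gave 1.10, 1.12, 1.05 and 1.11. The TRAIL arrays sat inside the NT range and the others above it. The increase was 0.57 ± 0.08 (SE) under SN (limma adjusted p = 1.19e-06), 0.40 under C3/C2 (adjusted p = 0.000104), 0.49 under TRAIL with C3/C2 and 0.44 under TRAIL with SN, all below a fold of 2. For TRAIL alone the difference was 0.01 (95% interval -0.15 to 0.17). SN and C3/C2 differed by 0.17 (adjusted p = 0.086). The C3/C2 rise was 0.10 (adjusted p = 0.328) with arrays scaled to their median and 0.26 (adjusted p = 0.126) relative to the spike-in controls, and that under TRAIL with C3/C2 was 0.15 (adjusted p = 0.156) with the array median. The SN rise passed under both scalings (0.44 and 0.60). The direction under both co-treatments depended on the scaling: relative to the spike-in controls MUC13 differed from NT by -0.18 under TRAIL with C3/C2 and by -0.09 under TRAIL with SN, where the median of all probes moved by -0.57 and -0.48.

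MUC4, the large membrane mucin that associates with the receptor ERBB2, was lower under TRAIL in all 3 of its measurable probes. In A_33_P3417281 the NT arrays were at -0.62, -0.60, -0.60 and -0.30 and the TRAIL arrays at -1.22, -1.21, -1.19 and -1.27. In A_24_P239177 they were at -0.23, -0.26, -0.26 and -0.02 against -0.54, -0.78, -0.44 and -0.59. TRAIL and NT did not overlap in either. The differences were -0.69 ± 0.10 (SE, limma adjusted p = 3e-05) and -0.39 ± 0.09 (SE, adjusted p = 0.00187), and A_24_P239176 gave -0.60 (adjusted p = 4.11e-05). With SN on top of TRAIL the loss was smaller than the sum of the separate effects in A_33_P3417281 (interaction 0.64, limma adjusted p = 0.00353) and in A_24_P239176 (0.63, adjusted p = 0.00149), while A_24_P239177 gave 0.34 (adjusted p = 0.0558). With spike-in scaling the first of these was 0.33 (adjusted p = 0.131) and the second 0.33 (adjusted p = 0.139). C3/C2 alone left MUC4 slightly higher, by 0.22 in A_24_P239177 (adjusted p = 0.0342), 0.25 in A_24_P239176 and 0.28 in A_33_P3417281. When arrays were scaled to their median that direction turned in all 3, to -0.08, -0.05 and -0.02, and with slide as a fixed block the adjusted p of A_24_P239177 was 0.104. SN was below C3/C2 in all 3 probes, with log2 differences from -0.62 to -0.34 and limma adjusted p = 0.00335 for A_24_P239177, whose difference was -0.17 with the array median (adjusted p = 0.147) and -0.17 with spike-in scaling (adjusted p = 0.218). The last MUC4 probe, A_24_P208825 at chr3:195474164-195474223, was well above background on 0 of the 24 arrays.

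**Figure D2:**
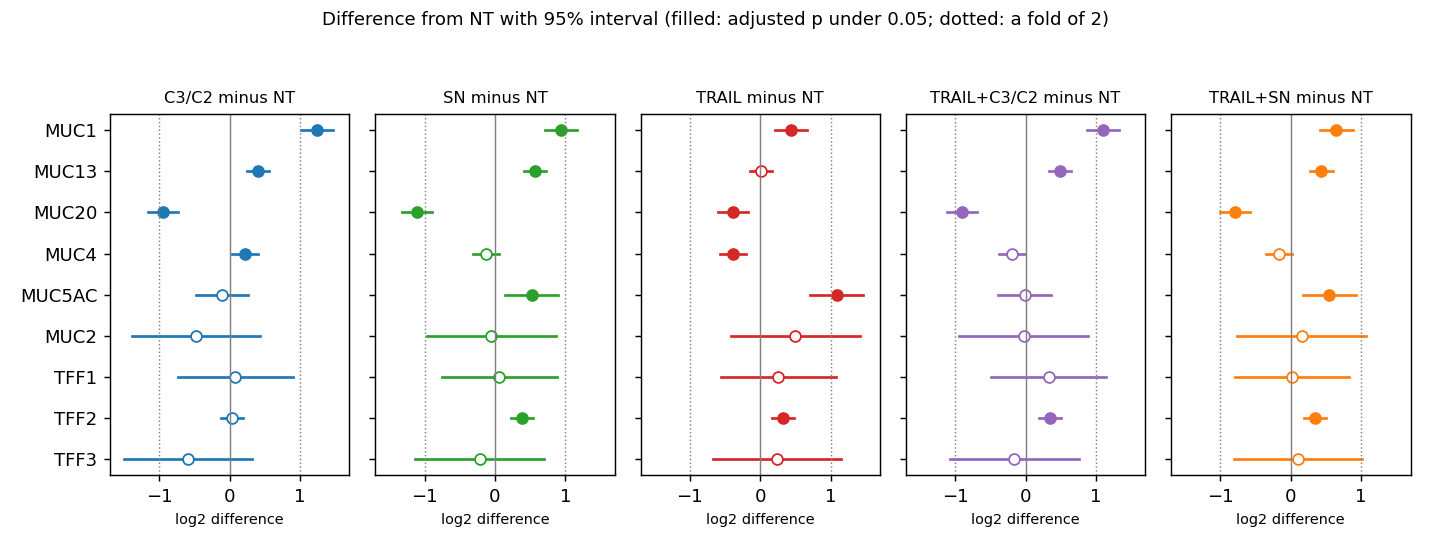
Difference from NT (log2, horizontal axis) of 9 genes, each by the probe that stands for it, in the 5 treatments. Bars are 95% intervals from limma over 4 arrays per group, filled points have an adjusted p under 0.05 and dotted lines mark a fold of 2. MUC1 lies to the right and MUC20 to the left under all treatments, and MUC5AC passes the fold of 2 under TRAIL alone.

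MUC5AC, the gel-forming mucin of the gastric surface, was the gene raised most by TRAIL among the 9 tested. In A_24_P917886 the NT arrays were at 0.04, 0.18, 0.21 and 0.77. The TRAIL arrays were at 1.00, 1.10, 1.53 and 1.90. TRAIL and NT did not overlap, although NT replicate 4 stood close to the lowest TRAIL arrays. C3/C2 gave 0.21, -0.06, 0.35 and 0.26, SN gave 0.68, 0.54, 1.14 and 0.91, TRAIL with C3/C2 gave 0.30, 0.19, 0.36 and 0.30, and TRAIL with SN gave 0.70, 0.66, 1.04 and 0.99. All of these overlapped the NT range. TRAIL raised the probe by 1.08 ± 0.18 (SE), or 2.12-fold (limma adjusted p = 0.000109). In A_33_P3216570 TRAIL gave 1.18 ± 0.18 (SE), or 2.26-fold (adjusted p = 6.18e-05), and in the dimmer A_33_P3216568 0.76 (adjusted p = 0.00248). Without TRAIL replicate 4, the differences of A_24_P917886 and A_33_P3216570 were 0.91 and 0.99 with adjusted p under 0.05, so that 0 member probes reached the fold of 2. Without NT replicate 1, A_33_P3216570 alone reached it, and A_24_P917886 was at 0.996. Relative to the spike-in controls the difference of A_24_P917886 was 0.83.

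In cells given TRAIL together with C3/C2, MUC5AC was lower than with TRAIL alone, and its difference from untreated cells depended on the scaling. The co-treatments and TRAIL alone lay on different slides. In A_24_P917886, TRAIL with C3/C2 differed from TRAIL alone by -1.10 (limma adjusted p = 1.62e-05) and from NT by -0.01 (95% interval -0.39 to 0.36). With spike-in scaling that difference from NT was -0.68 (adjusted p = 0.000793) in A_24_P917886, -0.55 (adjusted p = 0.00718) in A_33_P3216570 and -0.83 in A_33_P3216568, and with the array median A_33_P3216568 gave -0.51 (adjusted p = 0.0117). In this comparison of the co-treatment with TRAIL, 0 of the 18 member probes were called higher and 2 lower, both of MUC5AC, where 14.7% and 6.23% of all probes were. TRAIL with SN differed from TRAIL by -0.53 (adjusted p = 0.0121) and was 0.55 above NT (adjusted p = 0.00969), a rise that came to 0.02 (adjusted p = 0.901) with spike-in scaling and 0.35 (adjusted p = 0.0903) with the array median. SN alone raised the probe by 0.52 (adjusted p = 0.014), which missed the threshold with the array median (0.39, adjusted p = 0.0638), without NT replicate 1 (0.43, adjusted p = 0.0526) and without SN replicate 3 (0.42, adjusted p = 0.0585), whereas C3/C2 alone gave -0.11 (95% interval -0.48 to 0.26), and SN was above C3/C2 by 0.63 (adjusted p = 0.00685).

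Tested as an interaction, the combination of TRAIL with SN was below the sum of the separate effects in all 3 MUC5AC probes, by -1.06 ± 0.25 (SE, limma adjusted p = 0.00532) in A_24_P917886, -1.09 (adjusted p = 0.00508) in A_33_P3216570 and -1.13 (adjusted p = 0.0029) in A_33_P3216568, the last of which was -0.43 (adjusted p = 0.022) with normexp background correction. These were the 3 member probes called lower in that interaction, with 0 higher, where 0.379% and 2.6% of all probes were called. Without TRAIL replicate 4, or without NT replicate 1, A_33_P3216568 was the 1 member probe past the fold of 2, and all 3 kept an adjusted p under 0.05. At an adjusted p under 0.05 with no minimum fold, 3 member probes were higher and 5 lower (10.1% and 11.5% of all probes). For TRAIL with C3/C2 the interaction in A_24_P917886 was -0.99 (limma adjusted p = 0.0413), under the fold of 2. In that interaction 0 member probes were called (0.458% of all probes higher and 0.15% lower). At an unadjusted p under 0.05 there were 5, and the share of all probes at that threshold was not counted. With no minimum fold 0 were higher and 1 lower (1.52% and 0.905%). Leaving out any of 12 of the 16 arrays involved took this adjusted p over 0.05, with values from 0.0591 to 0.0925.

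**Figure D3:**
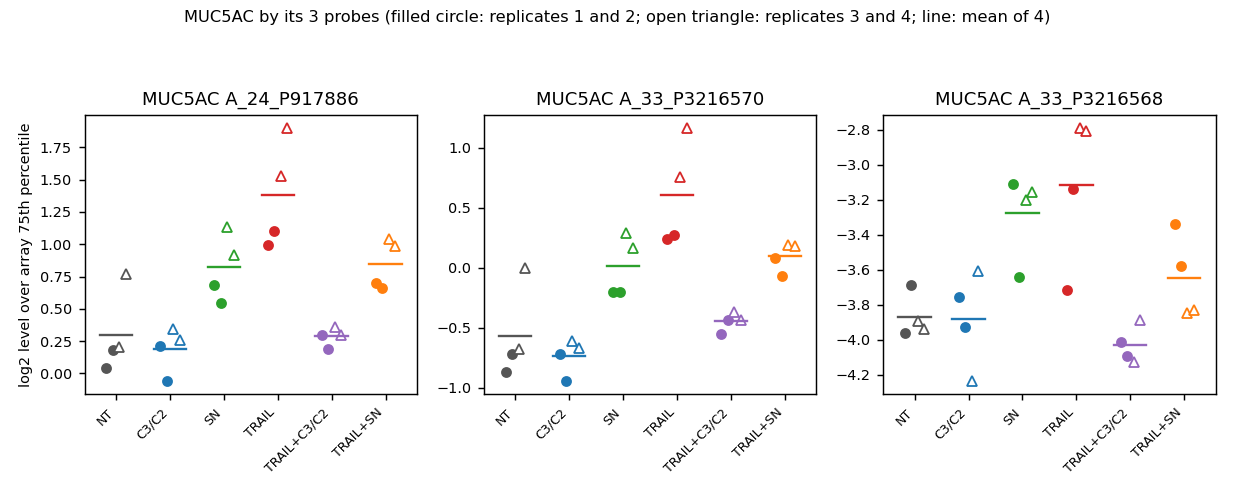
Levels of the 3 MUC5AC probes (log2 of intensity over the 75th percentile, 1 panel per probe) in the 6 groups, with filled circles for replicates 1 and 2, open triangles for replicates 3 and 4 and a line at the mean of 4 arrays. In A_24_P917886 and A_33_P3216570 the TRAIL mean is the highest of the 6 groups, although single SN arrays overlap TRAIL, and the arrays of TRAIL with C3/C2 lie within or close to the range of NT.

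MUC2, the main gel-forming mucin of the colon, differed more between replicate numbers than between treatments in the probe that stands for it. In A_23_P256784 the NT arrays were at -1.05 and -1.02 in replicates 1 and 2 but at 0.005 and 0.32 in replicates 3 and 4. C3/C2 arrays were at -1.29, -1.52, -0.46 and -0.37, and TRAIL arrays at -0.56, -0.53, 0.53 and 0.82. The groups overlapped widely. C3/C2 differed from NT by -0.48 ± 0.44 (SE, limma adjusted p = 0.359) and TRAIL by 0.50 ± 0.44 (adjusted p = 0.422). Taken within replicates 1 and 2 and within replicates 3 and 4, the C3/C2 differences were -0.37 (limma adjusted p = 0.0035) and -0.58 (0.0046). The TRAIL differences were 0.49 (0.0054) and 0.51 (0.023). This split was chosen after the values were seen. Each of its fits holds 2 arrays of a group, so the p-values may measure only the spread of duplicates. SN differed from NT by -0.05 (95% interval -0.97 to 0.86). No difference of MUC2 from NT passed in the other measured probes, where the 5 differences ran from -0.16 to 0.30 in A_33_P3401571 and from -0.01 to 0.64 in A_33_P3412384. The last MUC2 probe, A_24_P84657, was well above background on 0 of the 24 arrays. MUC5B, the gel-forming mucin of the airways, has a single probe at chr11:1281060-1281239, which was well above background on 3 of 24 arrays, 1 each of NT, SN and TRAIL with C3/C2, and was not tested.

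TFF3, the goblet cell trefoil peptide, showed the same split. In A_23_P393099 the NT arrays were at 4.16, 4.10, 5.21 and 5.30. The C3/C2 arrays were at 3.56, 3.52, 4.71 and 4.62. Each C3/C2 array lay below both NT arrays of its own pair of replicate numbers, but the groups overlapped. C3/C2 against NT was -0.59 ± 0.44 (SE, limma adjusted p = 0.253) over all 4 replicates. It was -0.59 within replicates 1 and 2 (limma adjusted p = 0.00014) and -0.59 within replicates 3 and 4 (adjusted p = 0.00019). Here too the split was chosen after the values were seen. With 2 arrays of a group in each fit, these within-pair p-values may measure only the spread of duplicates. A_33_P3334305, at another position of the gene, gave -0.64 (adjusted p = 0.207), with -0.62 and -0.67 within the pairs. The remaining TFF3 probe, A_24_P289208, gave -0.38 under C3/C2 (95% interval -0.82 to 0.05). TRAIL arrays of A_23_P393099, at 4.27, 4.41, 5.53 and 5.50, were 0.24 above NT (95% interval -0.67 to 1.15).

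TFF1, the trefoil peptide of the gastric surface, split in the opposite direction and responded to no treatment at the threshold. It has a single probe, A_24_P322771. NT arrays were at 2.38, 2.43, 1.37 and 1.48, and C3/C2 arrays at 2.46, 2.46, 1.57 and 1.50. SN arrays were at 2.42, 2.57, 1.47 and 1.45. The 5 differences from NT ran from 0.02 (TRAIL with SN) to 0.33 (TRAIL with C3/C2, 95% interval -0.48 to 1.14). Within the pairs, again split after the values were seen, TRAIL with C3/C2 was 0.30 (limma adjusted p = 0.0054) and 0.36 (adjusted p = 0.008) above NT. In this comparison the median of all probes was 0.10 under the main scaling, -0.24 with the array median and -0.57 with spike-in scaling. These scalings shift every probe of an array alike, so the TFF1 rise depends on the scaling.

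Averaged over the 6 groups, replicates 3 and 4 exceeded replicates 1 and 2 by 1.13 in TFF3 A_23_P393099, by 1.12 in TFF3 A_33_P3334305 and by 1.12 in MUC2 A_23_P256784 on the log2 scale, and in TFF1 the same difference was negative in every group, from -1.18 to -0.92. By size these were numbers 37, 41, 40 and 56 of the 27957 probes, of which 0.0644% were higher and 0.136% lower by a fold of 2 or more at an adjusted p under 0.05. The difference was -0.15 for MUC1 A_23_P137856, -0.08 for MUC13 and 0.46 for the other TFF3 probe, A_24_P289208. In the other measured MUC2 probes it was 0.87 for A_33_P3412384 but only 0.17 for A_33_P3401571 (limma adjusted p = 0.151). Which culture, extraction or hybridisation the replicate numbers share was not tested, since the labels do not give it.

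**Figure D4:**
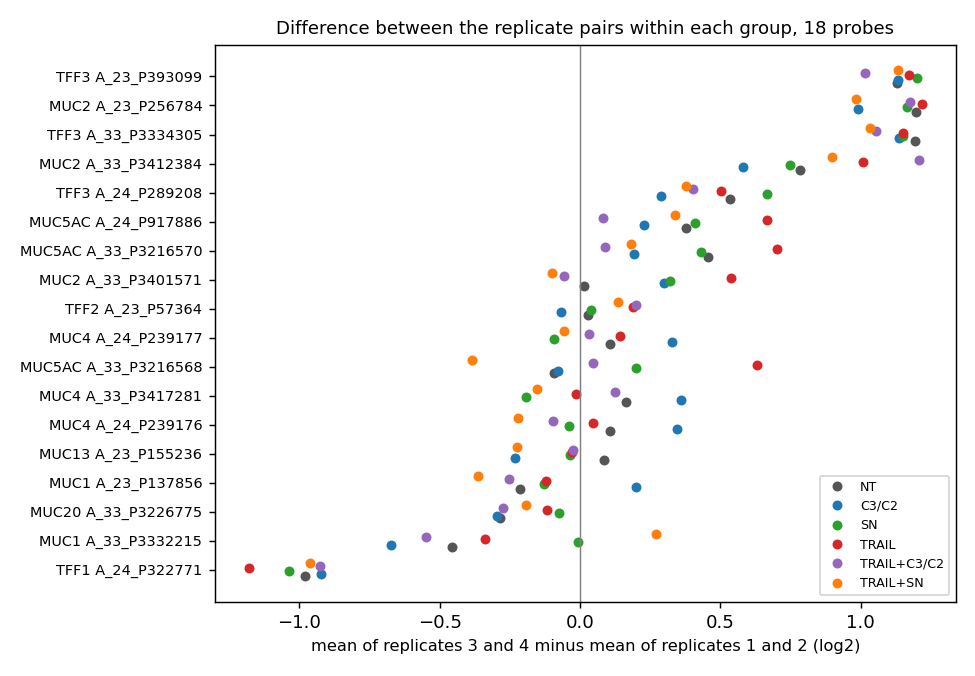
Mean of replicates 3 and 4 minus mean of replicates 1 and 2 (log2, horizontal axis) of the 18 tested member probes, 1 point per treatment group. TFF3 A_23_P393099, TFF3 A_33_P3334305 and MUC2 A_23_P256784 lie near 1 and TFF1 near -1 in all 6 groups, while MUC13 and MUC1 A_23_P137856 average -0.08 and -0.15.

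TFF2, the spasmolytic trefoil peptide of gastric glands, rose slightly under SN and TRAIL in its single probe, A_23_P57364. NT arrays were at -0.68, -0.60, -0.69 and -0.53. SN arrays were at -0.22, -0.31, -0.25 and -0.21, and TRAIL arrays at -0.48, -0.33, -0.25 and -0.19. Neither treated group overlapped NT. SN gave 0.38 ± 0.07 (SE, limma adjusted p = 0.000119) and TRAIL 0.32 (adjusted p = 0.00252), while C3/C2 gave 0.04 (95% interval -0.12 to 0.19). With spike-in scaling the TRAIL difference was 0.06 (adjusted p = 0.684). SN with TRAIL was below the sum of the separate effects (interaction -0.36, adjusted p = 0.019). The rises under TRAIL with C3/C2 (0.35, adjusted p = 0.000325) and TRAIL with SN (0.34, adjusted p = 0.000351) turned to -0.33 and -0.18 with spike-in scaling, and the first to -0.0016 with scaling to the array median.

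Directly compared, SN and C3/C2 gave 0 member probes called at the fold of 2 (1.21% of all probes higher and 4.28% lower, with 9 member probes at an unadjusted p under 0.05). The co-treatments against each other also gave 0 (0.984% and 2.5%, with 4 at an unadjusted p under 0.05). So did SN against TRAIL (12.9% and 8.05%, with 10 member probes at an unadjusted p under 0.05). The shares of all probes at an unadjusted p were not counted. With no minimum fold SN was above TRAIL in 5 member probes and below in 5 (32.4% and 34% of all probes). Without a minimum fold, SN was above C3/C2 in 4 member probes and below in 4 (21.4% and 24.1% of all probes), the 4 higher ones being the 3 MUC5AC probes and TFF2, and the 4 lower ones MUC1 and the 3 MUC4 probes already given.

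Other genes of mucus formation were counted in lists by their highest-mean probe at the fold of 2. Among the other mucins, 3 of the 11 on the array could be tested. The membrane mucin MUC12 was higher under C3/C2 (1.86), SN (2.25) and both co-treatments, and MUC17, of the same chromosomal cluster, under SN (1.89) and both co-treatments, and neither was called under TRAIL. MUC12 was well above background on 1 NT array only, so its NT level is poorly measured. Of 9 goblet cell secretory genes tested, KLK1, a tissue kallikrein, was the 1 called under C3/C2 (1.04) and under TRAIL with C3/C2 (1.02), and 0 were called under SN. Of 24 genes of mucin-type O-glycosylation, C3/C2 raised 1 and lowered 3, SN raised 3 and lowered 4, and TRAIL changed 0 at the fold of 2. Over all probes the shares higher and lower were 13.3% and 6.22% under C3/C2, 14.1% and 9.69% under SN, and 0.723% and 2.11% under TRAIL. FUT2, the secretor fucosyltransferase, fell under C3/C2 (-1.90) and SN (-2.76), and CHST4, a sulfotransferase of mucin-type glycans, fell under both (-1.57 and -2.16). GCNT1, which builds the core 2 branch, rose under both (1.85 and 2.13).

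Of 16 transcription factors of secretory and colon epithelium, C3/C2 raised 2 and lowered 5, SN raised 3 and lowered 4, and TRAIL changed 0 at the fold of 2, beside the same shares over all probes. KLF4, a factor of goblet cell differentiation, rose by 1.86 under C3/C2 and 2.35 under SN. SPDEF, another factor of goblet cell differentiation, fell (-1.45 and -1.03). ATOH1, the factor that commits cells to the secretory lineage, was well above background on 6 of 24 arrays and was not tested, with mean levels of -4.88 in NT, -7.11 under C3/C2 and -6.72 under SN. FOXA1 fell (-2.13 and -2.78). GATA5 was well above background on 0 of the 4 NT arrays and was at least 4.68-fold higher under C3/C2 and at least 3.61-fold higher under SN, these bounds being set against the lowest signal well above background on each NT array or the signal of the probe, whichever was higher. Of 8 partners of membrane mucins, ERBB3, a receptor of the ERBB family, was the 1 called under C3/C2 (-1.15) and was not called under SN (-0.68). The medians of these lists under C3/C2 were -0.14 for O-glycosylation, -0.39 for the transcription factors and -0.37 for the partners, beside 0.07 over all probes. Under SN they were -0.17, -0.05 and 0.004, beside -0.01. Among cells a culture of this line should not hold, the fibroblast markers COL1A2 and DCN were well above background on 0 of the 24 arrays, while the summed level of the 4 fibroblast markers was 0.135 to 0.199 in NT and 0.848 to 1.05 under SN, and its part in these results was not tested.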

How the data were processed

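The deposited files were 1-colour Agilent Feature Extraction 10.7.3.1 output, in which the authors' scanner software gives a processed intensity per spot, already background-corrected. A deposited table of the whole series held the same intensities over the array median (a signal on a linear scale), used as an alternative, and 24 of its columns were not used. Intensities were taken as log2 less the 75th percentile of each array over non-control spots; control and outlier-flagged spots were left out. limma 3.58.1 (R 4.3.3) was fitted to the 6 group means over 24 arrays with 18 residual degrees of freedom, with Benjamini-Hochberg adjustment over 27957 probes in each comparison. The fold of 2 follows the study's methods, which used other software. All 21 member probes are accounted for, and the probe of highest mean level stood for its gene. Scripts were tested on simulated data. The members and lists were chosen with earlier results of these data known. Exon annotation was not used here. A further probe sequence and a further gene of similar pattern are not reported here. Alternatives covered scaling, background, filters, thresholds, slides, replicate numbers and leaving out each array. Array number limits the precision.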

Additional observations from a re-analysis of the deposited data

Results flagged for a closer look

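In 6 of 126 groups of 4 arrays, 1 array stood apart from the other 3 by Dixon's test at the 95% level, which chance gives in about 1 of 20 groups. MUC2 A_24_P84657 was at -6.75 in C3/C2 replicate 3, where the probe was well above background on 0 of the 24 arrays. MUC2 A_33_P3401571 was at -2.61 in TRAIL with SN replicate 4. In NT replicate 4, MUC4 A_24_P239177 was at -0.024, MUC4 A_33_P3417281 at -0.30 and MUC5B A_24_P102650 at -4.27, all above the other NT arrays. MUC5AC A_33_P3216568 was at -3.64 in SN replicate 2.

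The effect of SN differed between cells with and without TRAIL by a test of the difference (log2, adjusted p under 0.05) in MUC1 A_23_P137856 (-0.73), MUC20 (0.70), MUC4 A_24_P239176 (0.64) and A_33_P3417281 (0.64), MUC5AC A_24_P917886 (-1.06), A_33_P3216570 (-1.09) and A_33_P3216568 (-1.13), and TFF2 (-0.36). The effect of C3/C2 differed in the same way in MUC5AC A_24_P917886 (-0.99).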

How the results depend on the processing

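The number of member probes called was 1 (C3/C2), 1 (SN), 2 (TRAIL), 1 (TRAIL with C3/C2) and 0 (TRAIL with SN) against NT, 0 for SN against C3/C2, for the co-treatments against each other, for SN against TRAIL and for the interaction of TRAIL and C3/C2, and 3 for that of TRAIL and SN. Without a minimum fold these became 6, 8, 9, 6, 8, 8, 3, 10, 1 and 8. Their shares over all probes are given above, except for the co-treatments against each other. There TRAIL with SN was above TRAIL with C3/C2 in 2 member probes and below in 1 (15.7% and 21.4% of all probes). The shares of all probes called were not counted under the alternatives that follow, so their counts show no excess by themselves. With spike-in scaling the median of all probes moved by -0.57 under TRAIL with C3/C2 and by -0.48 under TRAIL with SN. Spike-in scaling gave 2 under C3/C2, 0 under TRAIL, 3 (all lower) under TRAIL with C3/C2, 1 under TRAIL with SN and 3 for the TRAIL and C3/C2 interaction. Quantile scaling gave 2, 0 and 1 for C3/C2, TRAIL with C3/C2 and that interaction, and array median scaling and the authors' table each gave 3 for the interaction. Array median scaling left 1 call under C3/C2 and under TRAIL with C3/C2, but of MUC20 and not of MUC1. Normexp background correction gave 0 for C3/C2 and for TRAIL with C3/C2. With no filter on dim probes the counts were 2 (SN), 2 (TRAIL with C3/C2), 1 (TRAIL with SN), 1 (SN against C3/C2) and 1 (SN against TRAIL). With 1 probe a gene TRAIL and the TRAIL and SN interaction each gave 1, and within replicates 1 and 2 alone, a split chosen after seeing the data, they gave 1 and 0. Leaving out each array in turn, the counts ran from 1 to 2 (C3/C2), 0 to 2 (TRAIL), 0 to 3 (TRAIL and C3/C2 interaction) and 1 to 3 (TRAIL and SN interaction), stayed at 1 for SN and TRAIL with C3/C2, and at 0 for the others.

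Among the single differences tracked, the directions that turned were those of MUC13 under TRAIL with C3/C2 (-0.18) and TRAIL with SN (-0.088) with spike-in scaling, MUC4 A_24_P239177 under C3/C2 with array median scaling and the authors' table (-0.079 each), and TFF2 under TRAIL with C3/C2 (spike-in -0.33, array median and authors' table -0.0016) and TRAIL with SN (spike-in -0.18). The cause was not tested. Over the 45 single differences tracked, 572 of 639 values under the alternatives other than leaving out an array kept direction and side of the threshold, 47 lost the threshold and 12 gained it, and of 416 values without 1 array 26 lost it.

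Arrays of the same replicate number in different groups had correlated deviations from their group means (60 pairs, r from 0.052 to 0.448, 52 over 0.1), as did arrays of the other number within 1 and 2 or within 3 and 4 (40 of 60 over 0.1). For arrays of different pairs of numbers r ran from -0.321 to 0.055, with a median of -0.164 (0 of 120 over 0.1). Deviations sum to 0 within a group, so these correlations are not independent of each other. With the replicate number as a block, the counts of called member probes remained 1, 1, 2, 1, 0, 0, 0, 0, 0 and 3 in the order above, but the differences of TFF3 A_23_P393099 under C3/C2 (adjusted p = 6.2e-09) and of MUC2 A_23_P256784 under C3/C2 (4.68e-06) and TRAIL (1.55e-05) passed without a minimum fold. Signal over background limits the 5 member probes not well above background on all arrays.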

Other observations

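Over the 24 arrays and 14221 genes compared, the pattern of MUC1 A_23_P137856 was most like those of RELL2 (Pearson r = 0.938), ORAI1 (0.936) and DBNDD1 (0.931), and that of MUC5AC A_24_P917886 most like USP54 (0.904), DPM3 (0.895) and PTGS2 (0.890). The arrays share their treatments and replicate numbers, so these values are descriptions.

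MUC4 A_24_P208825, well above background on 0 of the 24 arrays, was listed between -8.00 and -7.86 in NT and between -6.15 and -5.55 under SN, and no fold is given for it.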
